A study of Mus musculus with 9 samples.

Results

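The genes described here encode the enzymes that remove peroxides and superoxide, the glutathione and thioredoxin systems that supply them with electrons, the NRF2 pathway and the core of cellular iron control. They were taken by symbol from a list of 40 genes of these pathways, a rule that does not refer to a measured value. A gene was kept when the array's probe table gave a row to its symbol alone, and the row with the highest mean was used where there were several. This left 38 genes of 19938 in the table, since Prdx5 and Prdx6 were named on no row, alone or with other genes.

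Single oocytes at metaphase II were profiled, 1 oocyte per Affymetrix Mouse Gene 1.0 ST array, with 3 oocytes in each of 3 RNA preparations. In the direct lysis group the crude lysate in NuGEN buffer was amplified without purification. In the PicoPure group RNA was purified with the Arcturus PicoPure kit, and in the RNeasy group with the Qiagen RNeasy Mini kit. All oocytes came from unmated ICR females, an outbred strain, aged 2 months and given 10 IU of PMSG and then, after 46 hours, 10 IU of hCG. Every sample was amplified with the same NuGEN One-Direct chemistry. According to the labels each condition drew on 3 mice, with 1 to 3 cells taken per mouse. They do not tie an oocyte to a mouse. The p-values therefore rest on oocyte-to-oocyte spread, oocytes may share a mouse, and mouse and preparation cannot be told apart.

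The values are the authors' normalized expression values, read here as log2 from their range, so that a difference of 1 is a 2-fold change. Array medians lay between 7.12 and 7.24. As a background level, the 95th percentile over 1246 chemosensory receptor genes (olfactory, vomeronasal and taste) was taken on each array, which gave 7.19 to 7.48. A gene over that level is called above background here. This limit was set for description and is no detection test. Of 14 oocyte markers, 13 were above background on all 9 arrays and Figla on 8. Markers of 3 other cell classes had mean levels that overlapped between the groups. The 15 cumulus and granulosa markers averaged 6.88 to 7.05 in crude lysate, 6.79 to 6.91 with PicoPure and 6.87 to 7.30 with RNeasy, with Foxl2 and Nr5a1 above background on all arrays and 9 of 15 on none. The 8 blood and immune markers averaged 6.63 to 6.67 in crude lysate, 6.52 to 6.69 with PicoPure and 6.65 to 6.81 with RNeasy, and 7 of them were above background on no array. The 7 oviduct markers averaged 7.91 to 8.07 in crude lysate, 7.82 to 7.93 with PicoPure and 7.87 to 7.95 with RNeasy. Cdh1 and Krt8 passed background on 9 arrays, Pax8 on 8 and Krt18 on 2. Epcam, Foxj1 and Krt19, 3 of the 7, did not pass it in any oocyte. The part of such cells in the results was not tested.

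Superoxide dismutases turn superoxide into hydrogen peroxide, which catalase, the glutathione peroxidases and the peroxiredoxins then reduce. Glutathione is made from its amino acids by glutamate-cysteine ligase and glutathione synthetase, and a mature oocyte holds a large store of it that is used after fertilization. Iron is tied to this chemistry because free iron turns hydrogen peroxide into hydroxyl radicals: ferritin stores iron, the transferrin receptor brings it in, and the iron regulatory proteins set the translation of ferritin and the stability of the receptor's mRNA.

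Of 38 genes, 19 (50%) were above background on all 9 arrays, 10 (26.3%) on some and 9 (23.7%) on none. Over all genes these shares were 43.1%, 21.8% and 35.1%. Peroxiredoxins 1 to 3, both thioredoxins, Sod1, Glrx, Gsta4, Fth1 and Ireb2 were among the 19. Cat, Hmox1, Prdx4, Txnrd2, Gpx7, Gpx8, Glrx2, Gstm1 and Mgst1 were the 9. Between 22 and 26 of the genes were above background on a single array: 26 in each crude lysate, 23 to 26 with PicoPure and 22 to 25 with RNeasy.

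**Figure D1:**
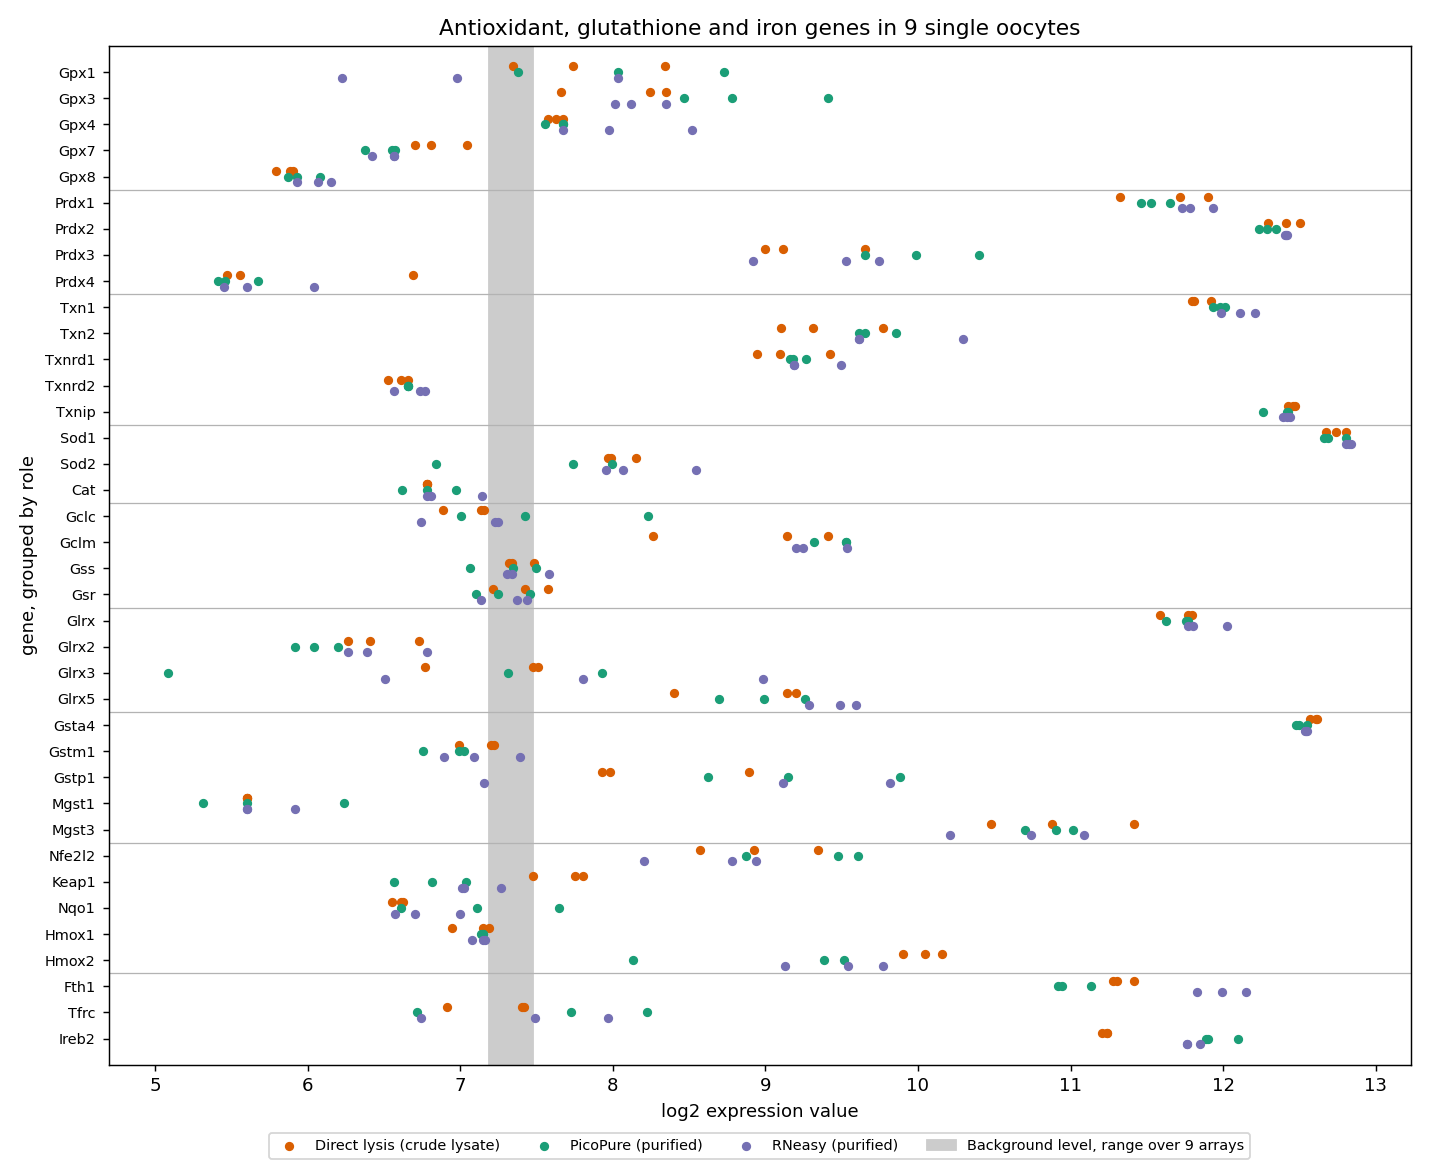
The log2 expression value of each of the 38 genes is plotted for 9 oocytes, with 3 points per preparation (direct lysis, PicoPure, RNeasy from the upper to the lower line of each gene) and the range of the background level in grey. The points of 19 genes lie above background on all arrays, while those of Glrx3, Gstp1 and Gpx1 spread widely within a preparation.

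Of the 5 glutathione peroxidases, 2 were above background throughout. Gpx4, which reduces lipid peroxides in membranes, had 7.63, 7.58 and 7.67 in crude lysate, 7.55, 7.67 and 7.67 with PicoPure and 7.67, 7.97 and 8.52 with RNeasy. The lowest RNeasy value equalled the highest of the other groups, and the groups touched. The same deposited value, to every decimal, stood on 4 of the 9 arrays for Gpx4, so the small spread among those arrays is not a measure of replicate error. In all, 6 of the 38 genes (15.8%) had 1 value on at least 3 arrays, namely Gpx4, Cat, Mgst1, Hmox1, Txnrd2 and Glrx, against 30.2% of all genes. The cause was not tested.

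Gpx3, the secreted plasma-type peroxidase, had 7.66, 8.24 and 8.35 in crude lysate, 8.46, 9.41 and 8.78 with PicoPure and 8.12, 8.35 and 8.01 with RNeasy. Every PicoPure oocyte lay above every RNeasy oocyte. The difference of 0.73 ± 0.26 (SE) did not pass the test over all genes (limma, adjusted p = 0.552). Every crude lysate also lay below every PicoPure oocyte, with a difference of -0.80 ± 0.26 (SE, limma, adjusted p = 0.285). Gpx1, the widespread cytosolic peroxidase, had 7.74, 8.34 and 7.35 in crude lysate, 8.73, 7.38 and 8.04 with PicoPure and 6.98, 8.03 and 6.22 with RNeasy. It was above background on 7 of 9 arrays and varied by 0.71 (pooled SD within preparations), so that the groups overlapped. Gpx7 and Gpx8, peroxidases of the endoplasmic reticulum, ranged from 6.38 to 7.04 and from 5.79 to 6.16, under background on every array.

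The peroxiredoxins use thioredoxin to reduce peroxides, and 3 of the 4 with a row were above background throughout. Prdx1, a cytosolic member, had 11.32, 11.90 and 11.72 in crude lysate, 11.46, 11.53 and 11.65 with PicoPure and 11.78, 11.93 and 11.73 with RNeasy. Prdx2, its close relative, had 12.41, 12.51 and 12.29 in crude lysate, 12.29, 12.35 and 12.23 with PicoPure and 12.42, 12.41 and 12.41 with RNeasy. For both genes each PicoPure oocyte lay below each RNeasy oocyte, with differences of -0.27 ± 0.14 for Prdx1 and -0.12 ± 0.07 (SE) for Prdx2, and neither passed the test (limma, adjusted p = 0.697 and 0.729). The second row of Prdx1 gave -0.27 as well, and its values correlated with the row used at r = 0.44. That of Prdx2 gave -0.05, with r = -0.12 and a purified mean of 11.40 against 12.35. The level and spread of Prdx2 therefore depend on the row.

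Prdx3, the mitochondrial member, had 9.0, 9.65 and 9.12 in crude lysate, 9.65, 9.99 and 10.40 with PicoPure and 8.92, 9.53 and 9.74 with RNeasy. It was among the 5 most variable of the 19 genes (pooled SD 0.39), and its groups overlapped. Prdx4, the peroxiredoxin of the secretory pathway, ranged from 5.41 to 6.69, under background on all arrays.

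The thioredoxin system gives electrons from NADPH to the peroxiredoxins, and 4 of its 5 genes were above background throughout. Txn1, the cytosolic thioredoxin, had 11.79, 11.81 and 11.92 in crude lysate, 12.01, 11.98 and 11.93 with PicoPure and 12.21, 11.99 and 12.11 with RNeasy. All crude lysates lay below all purified samples, though the highest lysate and the lowest PicoPure value nearly met. The difference was -0.20 ± 0.07 (SE) and did not pass the test (limma, adjusted p = 0.243). Txnip, the protein that binds and inhibits thioredoxin, had 12.46, 12.47 and 12.42 in crude lysate, 12.42, 12.42 and 12.26 with PicoPure and 12.44, 12.39 and 12.42 with RNeasy. Its pooled SD of 0.058 was among the 5 smallest of the 19 genes. The mitochondrial thioredoxin Txn2 ranged from 9.10 to 10.29 and the cytosolic reductase Txnrd1 from 8.94 to 9.50, with overlapping groups. The mitochondrial reductase Txnrd2 lay under background everywhere (6.53 to 6.77).

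The superoxide and peroxide enzymes split 3 ways. Sod1, the copper and zinc dismutase of the cytosol, had 12.67, 12.81 and 12.74 in crude lysate, 12.66, 12.81 and 12.69 with PicoPure and 12.84, 12.83 and 12.80 with RNeasy. Its values differed by at most 0.18 among the 9 oocytes, and no group stood apart. Sod2, the manganese dismutase of mitochondria, had 8.15, 7.99 and 7.97 in crude lysate, 7.74, 7.99 and 6.84 with PicoPure and 7.96, 8.55 and 8.07 with RNeasy. PicoPure replicate 3 was the 1 array on which Sod2 was under background. Cat, which encodes catalase, had 6.79 in each crude lysate, 6.62, 6.97 and 6.79 with PicoPure and 6.79, 7.14 and 6.81 with RNeasy. All 9 values were under background, and 5 of them were the identical number.

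For the synthesis and recycling of glutathione, 1 of 4 genes was above background on all arrays. Gclm, the modifier subunit of glutamate-cysteine ligase, had 8.26, 9.41 and 9.14 in crude lysate, 9.32, 9.53 and 9.53 with PicoPure and 9.53, 9.25 and 9.20 with RNeasy. Direct lysis replicate 1 was the lowest of the 9 oocytes, and the groups overlapped. Gclc, the catalytic subunit, had 7.14, 6.89 and 7.16 in crude lysate, 7.01, 8.23 and 7.42 with PicoPure and 7.25, 7.23 and 6.74 with RNeasy. It passed background on 2 arrays only, PicoPure replicates 2 and 3.

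Gss, the synthetase of the second step, had 7.34, 7.49 and 7.32 in crude lysate, 7.34, 7.06 and 7.50 with PicoPure and 7.31, 7.34 and 7.58 with RNeasy. Gsr, which reduces oxidized glutathione, had 7.21, 7.42 and 7.58 in crude lysate, 7.46, 7.10 and 7.25 with PicoPure and 7.14, 7.37 and 7.44 with RNeasy. Both genes hovered at the background level, above it on 7 and 4 arrays, and their groups overlapped.

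Glutaredoxins reduce disulfides with glutathione, and Glrx3 and Glrx5 also serve in iron-sulphur cluster handling. The cytosolic Glrx ranged from 11.59 to 12.03 on 9 arrays. The mitochondrial Glrx5 lay between 8.40 and 9.20 in crude lysate, between 8.70 and 9.26 with PicoPure and between 9.28 and 9.59 with RNeasy. Each PicoPure value of Glrx5 was below each RNeasy value, with a difference of -0.47 ± 0.23 (SE) that did not pass the test (limma, adjusted p = 0.666). Each crude lysate was also below each RNeasy value, with a difference of -0.54 ± 0.23 (SE, limma, adjusted p = 0.371). Glrx2, a second mitochondrial member, ranged from 5.91 to 6.78 and stayed under background, although its PicoPure values were all below its RNeasy values.

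Glrx3 had the widest spread of all 38 genes, with 7.51, 7.48 and 6.77 in crude lysate, 7.31, 5.08 and 7.93 with PicoPure and 8.98, 6.50 and 7.81 with RNeasy. Its pooled SD within preparations was 1.15, and 6 of 9 arrays were above background. A further row that lists Glrx3 together with a second gene was not used.

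Among the glutathione transferases, Gsta4, which conjugates the lipid peroxidation product 4-hydroxynonenal, had 12.61, 12.62 and 12.57 in crude lysate, 12.48, 12.50 and 12.55 with PicoPure and 12.55, 12.53 and 12.54 with RNeasy. Its pooled SD of 0.026 was the smallest of the 19 genes above background on all arrays. The crude lysates lay above all purified samples by 0.07 ± 0.05 (SE) on average, which did not pass the test (limma, adjusted p = 0.516). Mgst3, a microsomal transferase, had 11.42, 10.88 and 10.48 in crude lysate, 10.70, 11.01 and 10.91 with PicoPure and 10.74, 11.09 and 10.21 with RNeasy. Its oocytes differed within groups by more than the groups did.

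Gstp1, the pi-class transferase, had 8.90, 7.98 and 7.93 in crude lysate, 8.63, 9.15 and 9.88 with PicoPure and 9.12, 7.16 and 9.81 with RNeasy. RNeasy replicate 2 was its only value under background, while another RNeasy oocyte reached 9.81. Its pooled SD was 0.93. Gstp1 also stands on 2 rows that name it together with Gstp2, which were not used, so signal of both genes cannot be separated with certainty. Gstm1 (6.75 to 7.39) and Mgst1 (5.31 to 6.24) were under background on all arrays.

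NRF2, encoded by Nfe2l2, is the transcription factor that switches on many of these genes, and KEAP1 marks it for degradation in unstressed cells. Nfe2l2 had 8.93, 8.57 and 9.35 in crude lysate, 9.48, 9.60 and 8.88 with PicoPure and 8.78, 8.21 and 8.94 with RNeasy, all above background and with overlapping groups. Of the 5 genes grouped here with this pathway, 2 were above background on all arrays, 2 on some and 1 on none. Nqo1, a quinone reductase, had 6.62, 6.61 and 6.55 in crude lysate, 7.11, 6.61 and 7.65 with PicoPure and 7.0, 6.57 and 6.70 with RNeasy. It passed background on PicoPure replicate 3 alone. Hmox1, the inducible heme oxygenase, ranged from 6.94 to 7.19 and was under background on every array.

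NRF2 binds the antioxidant response element, and its core letters, TGACNNNGC, were searched on both strands of the RefSeq promoters (build GRCm38.p6, 250 bases before to 50 after each start). Of 35 genes of the list with a promoter, 6 held the letters (17.1%), against 14.0% of 27025 genes, so the share is near that of all promoters. The stretches are shown on the gene's strand to let the core be compared between the 6 genes. Capitals mark the core, which reads GCNNNGTCA where it lies on the other strand.
Nfe2l2, chr2:75704885-75704913, minus strand: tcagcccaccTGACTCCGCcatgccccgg
Gclm, chr3:122245413-122245441, plus strand: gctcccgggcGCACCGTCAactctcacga
Prdx1, chr4:116685456-116685484, plus strand: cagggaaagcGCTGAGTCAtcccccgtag
Mgst1, chr6:138140461-138140489, plus strand: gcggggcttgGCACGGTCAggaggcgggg
Txnrd1, chr10:82859104-82859132, plus strand: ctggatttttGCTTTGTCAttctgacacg
Sod1, chr16:90220696-90220724, plus strand: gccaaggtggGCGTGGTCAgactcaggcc
A match of these letters describes the window and is not evidence of binding.

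Crude lysate was compared with purified RNA to ask whether skipping the column changed what was read. Ireb2 was lower and Keap1 higher in crude lysate (2 of 38 genes, limma, adjusted p below 0.05), against 1.01% of all 19938 genes called in this comparison. Of all genes, 0.667% were lower and 0.341% higher. The median difference over the 38 genes was -0.05, against 0.00 over all genes, with 14 positive and 24 negative. Without a size limit, crude and purified values did not overlap for 6 of the 38 genes, against 8.02% of all genes. These were Ireb2, Keap1, Hmox2, Txn1, Gsta4 and Gpx7.

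Ireb2 encodes iron regulatory protein 2, which binds iron-responsive elements in the mRNAs of ferritin and the transferrin receptor when iron is scarce. It had 11.24, 11.21 and 11.24 in crude lysate, 12.09, 11.89 and 11.90 with PicoPure and 11.76, 11.85 and 11.76 with RNeasy. RNeasy replicates 1 and 3 held the same deposited value, so the RNeasy spread is not a full measure of replicate error. All crude lysates lay within 0.03 of each other and at least 0.52 below every purified sample. The level was 1.56-fold lower in crude lysate, with a difference of -0.65 ± 0.06 (SE, adjusted p = 0.0103). Against each kit, in tests that share the lysate arrays, the difference was -0.73 ± 0.07 for PicoPure (adjusted p = 0.0107) and -0.56 ± 0.07 for RNeasy (adjusted p = 0.0356). Ireb2 was the 1 gene of 38 called against PicoPure (0.597% of all genes), and Ireb2 and Fth1 were called against RNeasy (0.436% of all genes). The call against purified RNA was kept without any 1 of the 9 arrays, with adjusted p between 0.0222 and 0.0443. The call against PicoPure was lost without PicoPure replicate 2 (adjusted p = 0.0537). That against RNeasy was lost without any 1 array except PicoPure replicate 1, with adjusted p up to 0.114.

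Keap1 had 7.80, 7.48 and 7.75 in crude lysate, 7.04, 6.57 and 6.82 with PicoPure and 7.02, 7.27 and 7.01 with RNeasy. The groups did not overlap, but the purified values were at or under background, with 1 of 6 above it, while all 3 crude lysates were above. The difference from purified RNA was 0.72 ± 0.13 (SE, limma, adjusted p = 0.0478), and 0.37 with values raised to background (adjusted p = 0.115). The call was lost without any 1 of the 9 arrays, with adjusted p between 0.0557 and 0.124 and differences between 0.66 and 0.82. It was also lost with a further quantile normalization (adjusted p = 0.0709) and with median centring (adjusted p = 0.0598). Against PicoPure alone, where no array was above background, the difference did not pass the test (adjusted p = 0.0514). With values raised to background it was 1.36-fold (adjusted p = 0.114).

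Hmox2, the constitutive heme oxygenase that frees iron from heme, had 10.16, 10.04 and 9.90 in crude lysate, 9.51, 8.13 and 9.38 with PicoPure and 9.13, 9.77 and 9.54 with RNeasy. Every crude lysate was above every purified sample, yet the purified samples spread widely and the difference of 0.79 ± 0.30 (SE) did not pass the test (limma, adjusted p = 0.299). Gpx7 was also higher in all 3 lysates, but under background on all arrays.

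**Figure D2:**
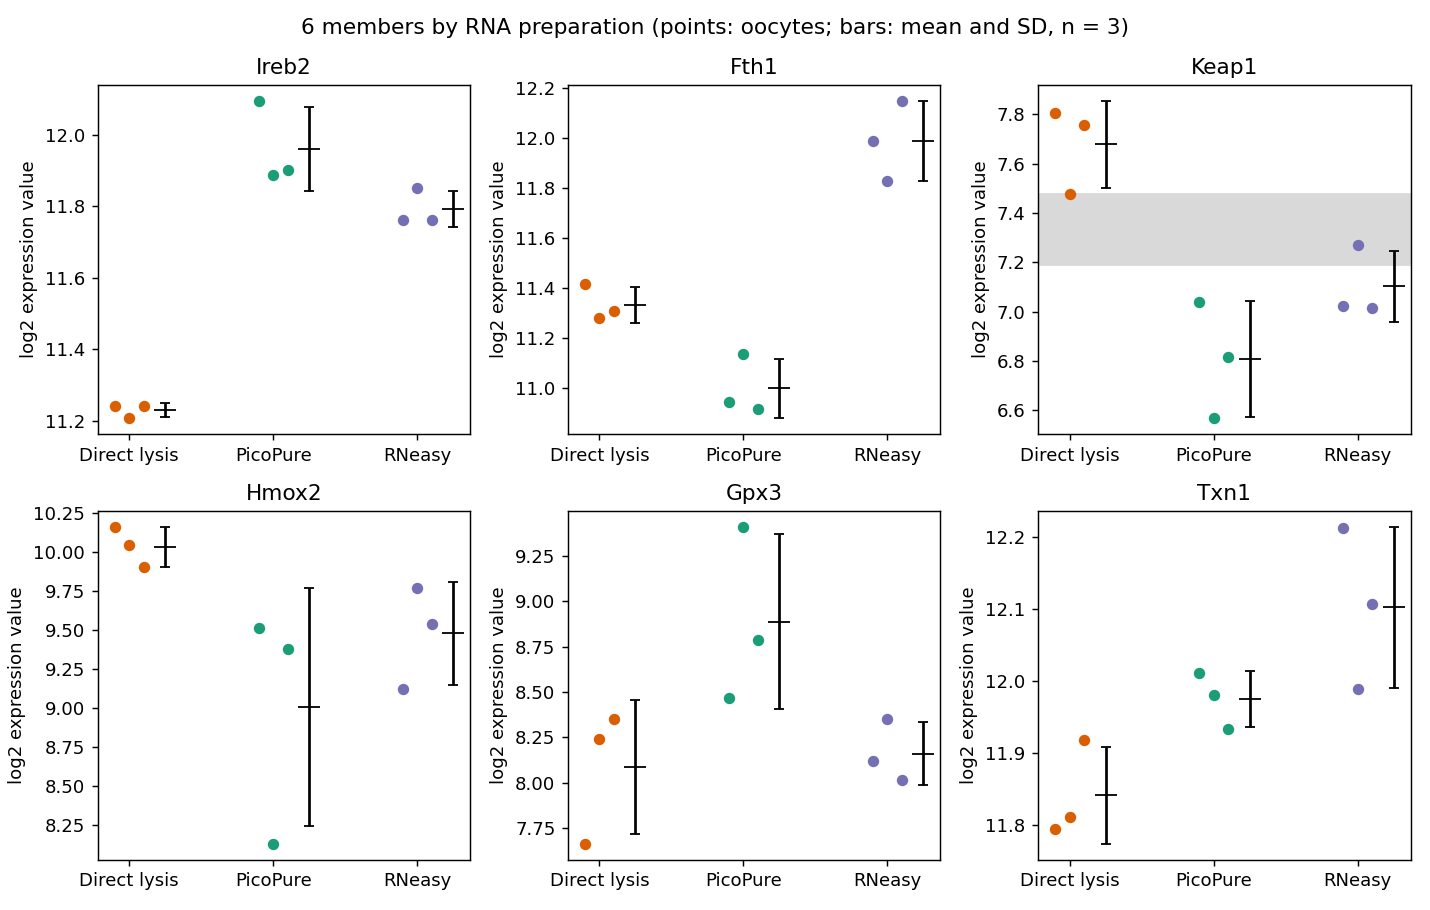
Log2 expression values of Ireb2, Fth1, Keap1, Hmox2, Gpx3 and Txn1 are plotted for each oocyte by preparation, with black bars for the mean and SD (n = 3) and, for Keap1, the range of the background level in grey. The vertical axes differ and do not start at 0. Ireb2 lies between 11.21 and 11.24 in crude lysate, and Fth1 lies between 11.28 and 11.42 in crude lysate, between 10.92 and 11.14 with PicoPure and between 11.83 and 12.15 with RNeasy.

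PicoPure was compared with RNeasy to set the column kits against each other. Fth1, the ferritin heavy chain that oxidizes and stores iron, was lower with PicoPure and was the 1 gene of 38 called, against 0.0602% of all genes (12 genes) and 0.0201% in that direction. The median difference was -0.09 over the 38 genes and -0.03 over all genes, with 13 positive and 25 negative. Values of both kits did not overlap for 7 of the 38 genes, against 13.9% of all genes: Fth1, Glrx2, Glrx5, Gpx3, Ireb2, Prdx1 and Prdx2.

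Fth1 had 11.42, 11.28 and 11.31 in crude lysate, 10.94, 11.14 and 10.92 with PicoPure and 11.99, 11.83 and 12.15 with RNeasy. The 3 groups formed 3 separate steps, with crude lysate between the kits. Fth1 was 1.99-fold lower with PicoPure than with RNeasy, with a difference of -0.99 ± 0.10 (SE, limma, adjusted p = 0.0207). It was also lower in crude lysate than with RNeasy, with a difference of -0.66 ± 0.10 (adjusted p = 0.0495), and its difference from PicoPure, 0.33 ± 0.10, did not pass the test (adjusted p = 0.243). These contrasts share arrays. Against the mean of both kits the crude lysates differed by -0.16 ± 0.09 (adjusted p = 0.448), a value that averages over kits on opposite sides.

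The PicoPure call of Fth1 was lost without any 1 array except direct lysis replicate 2, with adjusted p up to 0.105 and differences between -1.07 and -0.91. It was also lost with a trended, robust variance (adjusted p = 0.0548). The call against RNeasy in crude lysate was lost without any 1 of the 9 arrays (adjusted p between 0.0679 and 0.144) and with quantile normalization (adjusted p = 0.0778). The RefSeq gene table lists 2 Fth pseudogenes by symbol, and whether the row also reads them was not tested, so its level is uncertain in that respect. The same holds for Gpx4 (2 pseudogenes), Prdx1 (1), Prdx2 (2) and Txn1 (1).

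Tfrc, the transferrin receptor, had 7.42, 6.91 and 7.41 in crude lysate, 8.22, 6.72 and 7.73 with PicoPure and 6.74, 7.97 and 7.49 with RNeasy. Its pooled SD was 0.59, with 6 of 9 arrays above background, and the groups overlapped. Between the kits, Ireb2 was slightly above in PicoPure, by 0.17 ± 0.07 (SE), which did not pass the test (adjusted p = 0.633).

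**Figure D3:**
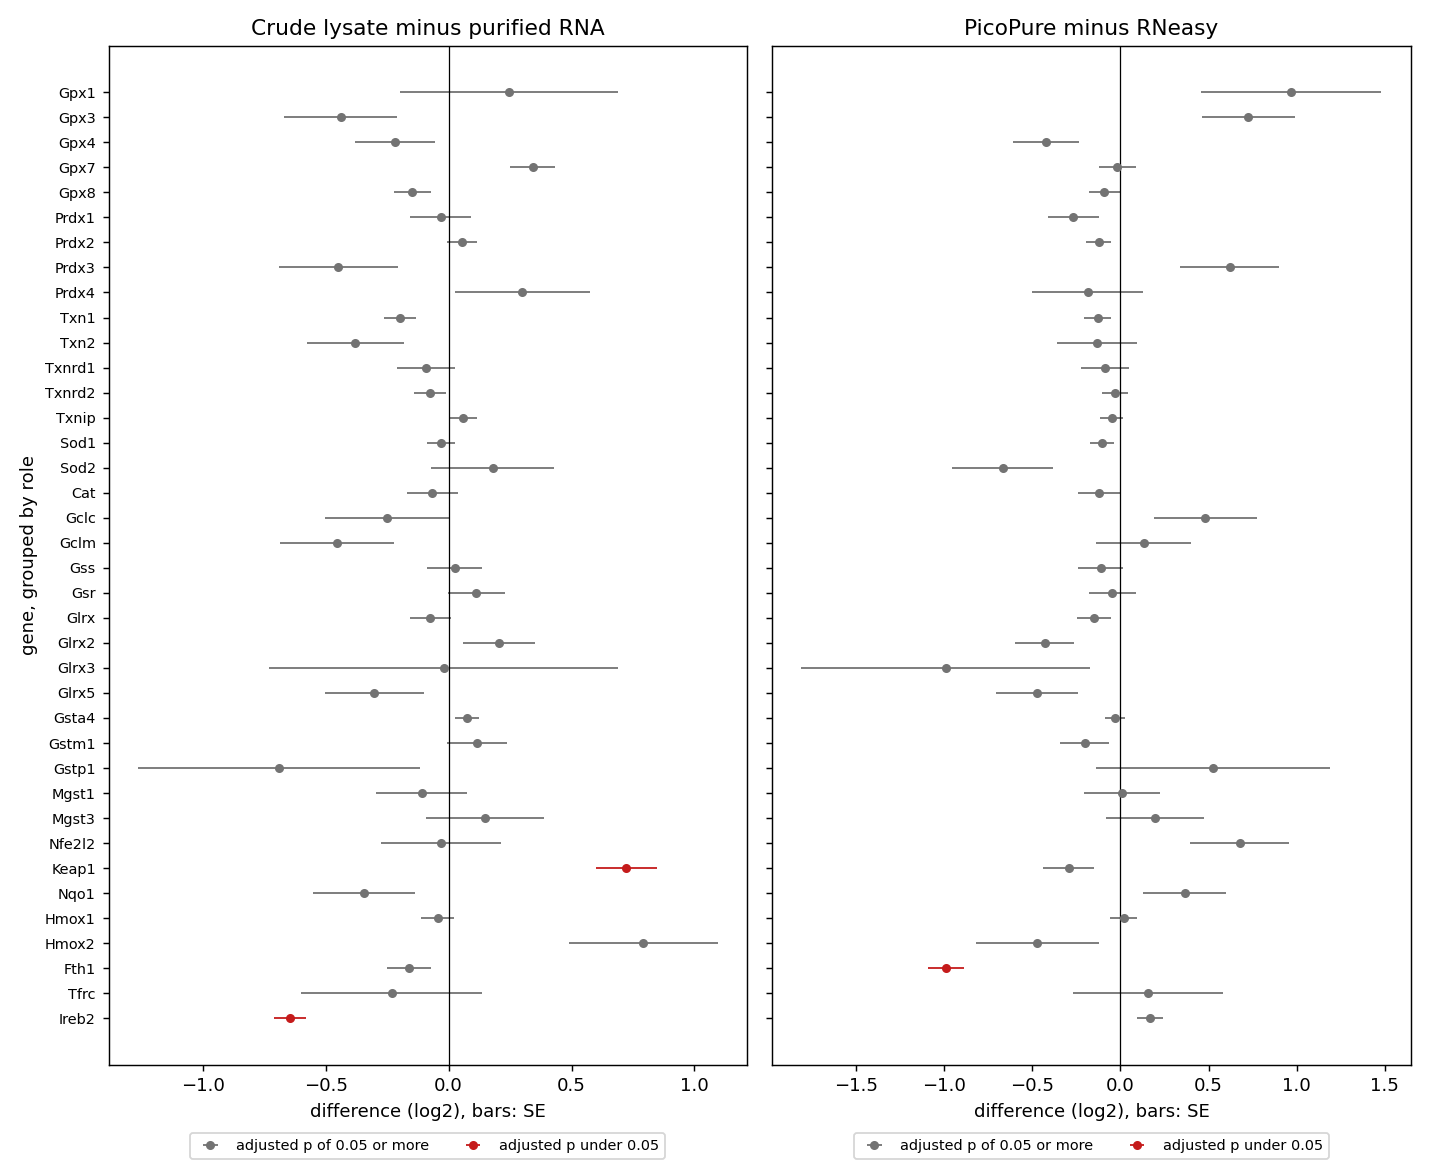
For each of the 38 genes the difference on the log2 scale is plotted with its SE, for crude lysate minus purified RNA (left) and PicoPure minus RNeasy (right), and red marks an adjusted p under 0.05. Keap1 (0.72) and Ireb2 (-0.65) are red on the left and Fth1 (-0.99) on the right.

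The spread of single oocytes within a preparation differed widely between these genes. The median pooled SD was 0.19 log2 units for the 19 genes above background on all arrays and 0.19 for the 8589 such genes in all. The 5 smallest belonged to Gsta4, Txnip, Sod1, Prdx2 and Ireb2 (0.026 to 0.074), genes with mean levels of 11.66 to 12.76. The 5 largest belonged to Hmox2, Nfe2l2, Prdx3, Mgst3 and Gclm (0.37 to 0.49), with mean levels of 8.97 to 10.83. Whether the spread followed the level was not tested. Within groups, Hmox2 oocytes lay closest together in crude lysate and farthest apart with PicoPure. Of the called genes, Ireb2 had a pooled SD of 0.074, Fth1 of 0.12 and Keap1 of 0.19.

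Further genes of these pathways were described by list, 156 genes with a row among 171 listed. Of the 156, 82 passed background on every array and 37 on no array, where the shares over all genes were 43.1% and 35.1%. In crude lysate 1 gene was lower and 0 were higher, against 1.01% of all genes called, and the median difference was 0.02. Between the kits limma called 0, against 12 of all genes. The gene called was Tmx3, a thioredoxin-related disulfide isomerase of the endoplasmic reticulum membrane. It had 7.84, 7.54 and 7.32 in crude lysate, 8.46, 8.98 and 8.45 with PicoPure and 8.67, 8.75 and 8.58 with RNeasy. It was 2.12-fold lower in crude lysate, with a difference of -1.08 ± 0.15 (SE, adjusted p = 0.0224), and the call was lost without 6 single arrays: RNeasy replicates 1, 2 and 3, PicoPure replicate 1 and direct lysis replicates 2 and 3 (adjusted p up to 0.0687).

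By list, the number above background on all arrays was 9 of 29 other glutathione enzymes, 17 of 25 other thioredoxin-type genes and 13 of 21 further superoxide and NRF2 genes, among them Bach1, a repressor at NRF2 sites, and the cystine transporter gene Slc7a11. The genes named for each list were picked for their known roles after their values were seen. Srxn1, the sulfiredoxin that restores overoxidized peroxiredoxins, was above background on no array. The count was 10 of 13 genes of NADPH supply, among them Idh1, Idh2 and Pgd. For iron uptake, export and storage it was 9 of 27, among them Aco1, which encodes iron regulatory protein 1, and Ncoa4, the receptor for ferritin breakdown. The iron exporter gene Slc40a1 was above background on no array. For iron-sulphur cluster and heme synthesis it was 15 of 25, and for selenoprotein genes, which include those that insert selenocysteine into the glutathione peroxidases, 9 of 16. The list medians of both differences, crude lysate minus purified RNA and PicoPure minus RNeasy, ran from -0.07 to 0.08 over the 7 lists.

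**Figure D4:**
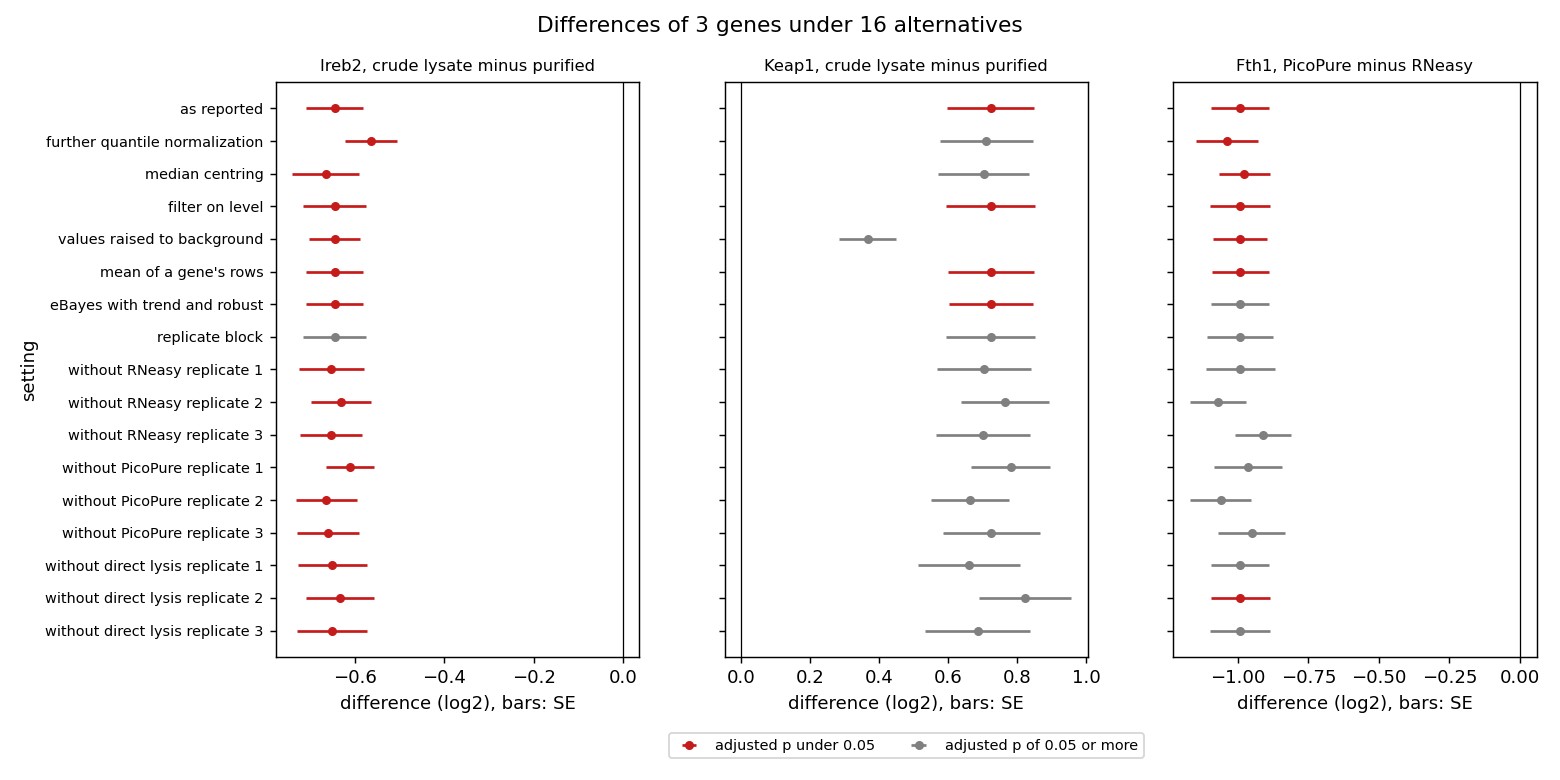
The differences of Ireb2 and Keap1 (crude lysate minus purified RNA) and Fth1 (PicoPure minus RNeasy) are plotted with their SE as reported and under 16 alternatives, with red for an adjusted p under 0.05. All points lie on the same side of 0 as the reported value, and 15, 3 and 6 of the 16 alternatives are red for Ireb2, Keap1 and Fth1.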

How the data were processed

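The authors deposited normalized log2 expression values for 35556 rows on 9 arrays. The submitters' processing notes name GCOS, GCRMA and Affymetrix Expression Console, with no order. The scale was read as log2 from the values (2.41 to 13.90). Scanner files were not used here, so background correction could not be varied, and the number of arrays limits the precision. Gene names came from the platform's probe table, in which 21789 rows had 1 symbol, 1621 several and 12146 none.

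Groups came from the sample titles. The tests used limma 3.58.1 under R 4.3.3 (lmFit, eBayes, 9 arrays in 1 fit, two-sided, Benjamini-Hochberg over 19938 genes, threshold 0.05), after a test on simulated data. Named genes were those called, the 5 most and least variable, those above background on some arrays, and a fixed panel. Also named were those without overlap and at least 0.5 apart, for crude lysate against purified RNA or PicoPure against RNeasy. Further pathway lists and marker lists are described in the report by counts. The 40 genes were listed by pathway and not by a measured value, but this list and the others were drawn up with earlier results of these data known. Alternatives covered normalization, filters, rows, variance model, replicate block and leaving out each array. The labels do not say whether replicate numbers pair the oocytes. Deviations of same-numbered arrays correlated between -0.09 and 0.13, with 1 of 9 pairs over 0.1. These correlations run over all genes and cannot decide it.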

Additional observations from a re-analysis of the deposited data

Results flagged for a closer look

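Among the 26 genes with all values given, Txnip had 1 oocyte far from the rest of the 6 purified samples. PicoPure replicate 3 had 12.26, against 12.39 to 12.44 in the other 5, and its gap to the nearest was 0.728 of the whole range, above Dixon's 95% limit of 0.625. Chance gives such a gap in about 1 of 20 groups, and the gap is 0.13 log2 units. Of the 26 genes tested 1 was flagged, no more than that rate gives. The 6 samples also pool both kits.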

How the results depend on the processing

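For crude lysate against purified RNA, 2 of the 38 genes were called. The count was 1 with a further quantile normalization, with median centring and with values raised to background, and 1 in each fit without 1 array. Over all genes 201 were called, and 24 to 232 without 1 array. Between PicoPure and RNeasy the count was 1, and 0 with a trended, robust variance, where 0 of all genes were called (12 as reported, with 1591 at an unadjusted p under 0.05). Without 1 array it was 0 to 1 of the 38 and 0 to 15 of all genes. Against RNeasy alone the lysates had 2 called, 1 with quantile normalization and 0 to 1 without 1 array (87 of all genes, 3 to 95 without 1 array). Against PicoPure alone they had 1, then 2 with the filter on level or the trended variance and 0 to 1 without 1 array (119 of all genes, 73 with quantile normalization, 14 to 123 without 1 array). With the replicate number as a block, 0 of the 38 genes were called in any comparison, and 25, 0, 15 and 17 of all genes in the order above. The labels do not say what the number stands for, and whether it marks a shared batch was not tested. With this block Ireb2 had an adjusted p of 0.0624, and it kept its call in the other 15 of 16 alternatives. The 19 genes above background on all arrays were 22 and 16 with the 90th and 99th percentiles of the receptors, and 19 to 20 without 1 array. With values raised to background the difference of Gpx7 in crude lysate was -0.051 instead of 0.34, since all its values lay under background. Of 338 mean levels recomputed, 334 moved by less than the pooled SD. The cause of the other changes was not tested.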
